A study of Mus musculus with 55 samples.

Results

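The dopamine and adrenergic receptors described here are 9 genes, Drd1, Drd2, Drd5, Adra1a, Adra1b, Adra1d, Adra2a, Adra2c and Adrb1, of the 45318 gene identifiers in the deposited count tables. They were chosen by name, as the receptors for dopamine, noradrenaline and adrenaline that the ventral dentate gyrus held, and not by a difference between groups. Their mRNA was measured by bulk RNA-seq of ventral dentate gyrus punches, 1 mouse per RNA sample, from 54 C57BL/6J males. The mice were assigned at 21 days of age to standard housing (SH, 3 mice per cage) or to an enriched environment (EE, 12 mice per cage with tunnels, objects and running wheels), stayed there for 8 weeks, and were either left unstressed or exposed to 10 days of chronic social defeat stress (CSDS). Tissue was taken at 90 days. Defeated mice were divided by the ratio from a social interaction (SI) test into resilient mice (RES, ratio above 1) and susceptible mice (SUS, ratio below 1), so RES and SUS are behavioral classes and not separate treatments. The 6 groups were SH control (10 mice), SH RES (7), SH SUS (10), EE control (9), EE RES (9) and EE SUS (9). A punch holds every cell type of the tissue it cut.

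Dopamine reaches the hippocampus from the midbrain and, together with noradrenaline, from fibers of the locus coeruleus. D1-class receptors (Drd1, Drd5) and the beta receptor Adrb1 couple to Gs or Golf and raise cAMP, the D2-class receptor Drd2 and the alpha2 receptors Adra2a and Adra2c couple to Gi and lower it, and the alpha1 receptors Adra1a, Adra1b and Adra1d couple to Gq and phospholipase C. In the dentate gyrus both transmitters are known for tuning the excitability of granule cells and the plasticity of their perforant path input.

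The libraries held 32223034 to 49990637 read pairs (median 44765652), and 16760009 to 45872357 counts per mouse fell on genes (median 21552884), the highest in EE control mouse 9. Its name is carried by 2 libraries, which were summed and counted as 1 mouse, although the labels do not say whether the second is a repeat run or another mouse. Counts of a receptor in single mice ran from 17 for Drd2 and Adra1b to 969 for Adra1d, which makes Drd2, Adra1b and Adra2a the least precise. Levels are given as CPM, gene counts scaled to a common normalized library size. Levels of different genes are compared only per length, as TPM. For TPM, counts are divided by the joint length of all annotated exons of the gene and scaled to the same total in every mouse. Dentate granule cell markers were present in every mouse, with a summed level of 6 genes of 341 to 779 CPM. The 6 thalamus markers were also present in every mouse, at 21.4 to 276 CPM, and none of them was at 0 in any mouse. Choroid plexus markers ranged from 16.3 to 975 CPM, the highest in SH control mouse 3.

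In GRCm38, Drd2 lies at chr9:49340627-49408177, Adra1a at chr14:66635251-66771168, Adra2c at chr5:35278319-35281763, Adra2a at chr19:54044151-54048982 and Adrb1 at chr19:56722199-56733113, all on the plus strand, and Adra1d at chr2:131545850-131562283 on the minus strand. All 9 are annotated as protein coding. The first question was which of these receptors the ventral dentate gyrus held most of. Per length, Adra1d was the most abundant, with a median of 34.6 TPM over the 54 mice (range 22.1 to 53.3), and made up 43.6% of the summed TPM of the 9 receptors. Its range lay above that of the next gene, so every mouse had more Adra1d than any other of these mRNAs per unit of length. Adra2c, a presynaptic and postsynaptic inhibitory receptor, followed at 13.9 TPM (10.1 to 18.9; 17.6%) and was above Drd5 in 50 of 54 mice. Drd5, the high-affinity D1-class receptor, stood at 11.3 TPM (8.04 to 15.5; 14.4%) and was above Adrb1 in 54 of 54 mice. Adrb1, the principal cardiac and forebrain beta receptor, stood at 5.95 TPM (4.29 to 9.22) and Drd1 at 5.27 TPM (2.99 to 15.7). These neighbors were not separated, as Adrb1 was above Drd1 in only 29 of 54 mice, whereas Drd1 was above Adra1a in all 54. The place of Adra1a depends on the length used, which was 8728 bases against 3628 for Drd1. The transcripts in use may be shorter than the joint exons. The lowest levels were those of Adra1a at 2.43 TPM (1.72 to 3.70), Adra1b at 1.62 TPM (0.587 to 6.90), Drd2 at 1.55 TPM (0.772 to 2.39) and Adra2a at 1.46 TPM (0.922 to 2.48). Adra1a was above Adra1b in 45 mice, Adra1b above Drd2 in 29 and Drd2 above Adra2a in 31, so the order of the last 3 differed from mouse to mouse. Among all genes tested, Adra1d was at percentile 79.0 of the median TPM and Adra2a at percentile 16.4. A level in a punch cannot separate the number of cells that use a gene from the RNA per cell, and this holds for every value below.

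**Figure D1:**
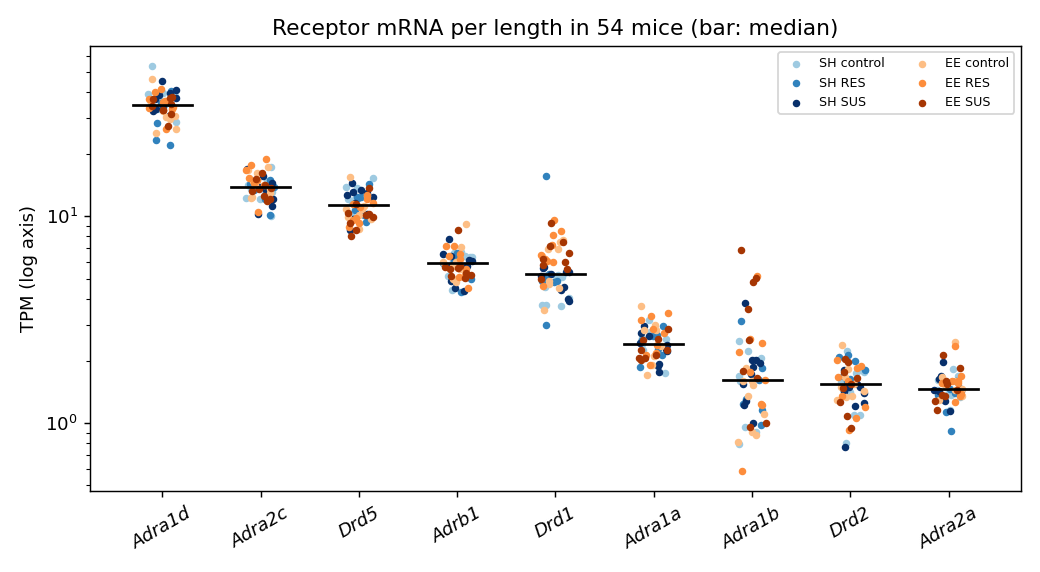
Each point is 1 of 54 mice, colored by group, the vertical log axis is TPM and the bar is the median of all mice. The points of Adra1d lie between 22.1 and 53.3 TPM, above those of every other receptor, and Adra1b has the widest relative spread, from 0.587 to 6.90 TPM.

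Of the other catecholamine receptors, Drd3, Drd4 and Adrb3 had medians of 0.0944, 0.130 and 0.175 CPM and did not pass the filter on low counts. Adra2b passed it, with a median of 0.673 CPM (range 0.0439 to 4.03). Drd5 and Adra1d each overlap an antisense gene, Gm26560 and Gm14285, but the library kit and the counting kept strand. With counts that ignored strand, the median of Drd5 was 6.33 CPM in place of 12.6 CPM, since read pairs in the shared stretch then counted for neither gene. The level of Drd5 given here therefore depends on the strand-specific count.

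In GRCm38, Drd1 lies at chr13:54051183-54055705 on the minus strand, Drd5 at chr5:38319367-38322518 on the plus strand and Adra1b at chr11:43774606-43901210 on the minus strand. These 3 receptors had the smallest p-values among the members, so the sequence before their gene starts is shown (RefSeq, GRCm38.p6), cut where the annotated gene begins. Capitals mark the GC box GGGCGG or its reverse complement.
Drd1 upstream, chr13:54055706-54055908, minus strand: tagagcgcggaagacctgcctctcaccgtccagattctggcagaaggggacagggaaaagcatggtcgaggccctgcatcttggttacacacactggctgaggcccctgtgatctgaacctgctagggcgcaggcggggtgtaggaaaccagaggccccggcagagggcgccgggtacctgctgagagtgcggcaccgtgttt
Drd5 upstream, chr5:38319259-38319366, plus strand: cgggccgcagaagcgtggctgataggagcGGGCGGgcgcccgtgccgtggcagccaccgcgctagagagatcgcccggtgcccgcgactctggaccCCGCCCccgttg
Adra1b upstream, chr11:43901238-43901487, minus strand: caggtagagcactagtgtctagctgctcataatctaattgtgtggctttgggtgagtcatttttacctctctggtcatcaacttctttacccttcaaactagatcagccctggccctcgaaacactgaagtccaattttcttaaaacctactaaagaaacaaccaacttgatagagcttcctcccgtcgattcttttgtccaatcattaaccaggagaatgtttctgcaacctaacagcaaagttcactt
Over the 250 bases before the RefSeq start used here, the GC content was 64.0% for Drd1, 71.2% for Drd5 and 41.6% for Adra1b. The median of 32817 mouse promoters was 52.4%. The number of CG pairs was 15, 35 and 3, against a median of 6. In these windows the GC box was found on either strand 2 times for Drd5 and not for Drd1 or Adra1b, and 32.7% of the promoters held it. The cAMP response element TGACGTCA, held by 1.55% of the promoters, its core TGACG, which lies within the full element and was held by 17.7%, and TATAAA, held by 12.4%, were in none of the 3 windows. RefSeq lists a second start for Drd1 and for Adra1b, whose sequence is not shown and whose values differ. Over the 250 bases before the second start, the GC content was 60.8% for Drd1 and 72.8% for Adra1b. The number of CG pairs was 5 and 22, and each of these windows held 1 GC box.

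Housing was the comparison in which the D1-class receptors stood out, and the 2 members of the class had differences of opposite sign. The SH and EE mice were compared over all 3 stress classes to ask whether the rearing environment altered receptor mRNA. The labels name no rearing cage, so cage could not enter the fit. Mice reared in the same cage were therefore counted as independent in every housing test and count. Drd1 was measured at 4.68, 6.03 and 6.90 CPM (lowest, median and highest mouse) in SH control, 4.13, 6.55 and 20.96 in SH RES and 5.25, 6.68 and 7.65 in SH SUS mice. In EE it was measured at 4.59, 8.70 and 10.6 CPM in control, 6.08, 8.86 and 12.1 in RES and 6.67, 8.67 and 12.8 in SUS mice. The medians of all EE groups were above those of all SH groups, the ranges overlapped, and 1 mouse, SH RES mouse 5, stood far above every other. In 23 of 27 EE mice Drd1 was above the median of the SH mice. The mean was 5.89 ± 0.833 CPM (SD, n = 10) in SH control and 7.88 ± 2.09 CPM (SD, n = 9) in EE control mice. The log2 fold change from SH to EE was 0.33 (SE 0.10), with an adjusted p of 0.0676 in edgeR's quasi-likelihood test, and so did not pass 0.05. It passed with limma-voom (0.37, SE 0.10, adjusted p = 0.0275) and with DESeq2 (0.32, SE 0.11, adjusted p = 0.0491). The edgeR call turned on single mice. Without EE control mouse 8 the adjusted p was 0.0494 (log2 fold change 0.34). Without SH RES mouse 5 the 6 other SH RES mice averaged 6.22 ± 1.11 CPM, 19 of 27 EE mice lay above the highest of the 26 remaining SH mice (7.65 CPM), and the log2 fold change was 0.46 with an adjusted p of 0.000161 from edgeR. With that mouse in, the highest SH value (20.96 CPM) was above the highest EE value (12.8 CPM). The mouse was singled out by its high value and the highest EE mouse was kept, so these values are not separate support for a difference.

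Drd5 was measured at 11.2, 13.8 and 16.7 CPM in SH control, 10.9, 13.7 and 17.1 in SH RES and 10.1, 14.5 and 15.5 in SH SUS mice. In EE it was measured at 10.7, 11.8 and 17.9 CPM in control, 10.1, 12.6 and 13.8 in RES and 9.45, 11.9 and 15.7 in SUS mice. Again the ranges overlapped, the medians of the EE groups were all below those of the SH groups, and 24 of 27 EE mice were below the SH median. The log2 fold change was -0.17 (SE 0.05, adjusted p = 0.0695 from edgeR), which did not pass, while DESeq2 gave -0.17 (adjusted p = 0.0407) and limma-voom -0.17 (adjusted p = 0.0610). It passed with edgeR when 1 of 4 mice was left out, namely SH RES mouse 5 (-0.19, adjusted p = 0.0459), SH SUS mouse 3 (-0.19, 0.0289), EE control mouse 8 (-0.20, 0.0206) or EE SUS mouse 7 (-0.19, 0.0338). It did not pass with any other mouse left out. Over all these fits the log2 fold change was -0.20 to -0.15 (without SH RES mouse 4), with an adjusted p of 0.0206 to 0.109. Markers of the dentate granule cell moved with Drd5. Of the 6 granule cell markers, 3 fell in EE mice by edgeR (Npnt by 0.33, Dsp by 0.30 and Tdo2 by 0.28 on the log2 scale, with adjusted p of 0.00135, 0.0281 and 0.0214), and their summed median level was 614, 631 and 591 CPM in SH control, RES and SUS against 600, 494 and 522 CPM in EE. The sums spanned 404 to 742 CPM in SH and 341 to 779 CPM in EE mice, and no granule cell marker was at 0 in any mouse. With granule cell, CA1 and thalamus marker scores as covariates, the Drd5 difference was -0.08 (adjusted p = 0.507), and the Drd1 difference was 0.42 (adjusted p = 0.0370, edgeR).

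**Figure D2:**
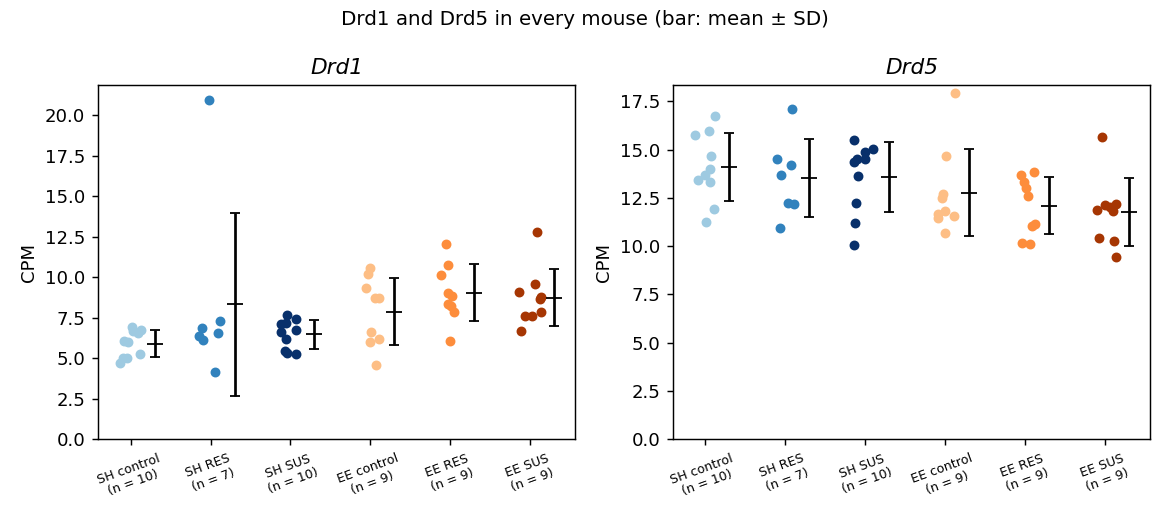
Each point is 1 mouse, the vertical axis is CPM from 0, and the bars beside the points are the group mean and SD. In Drd1 the EE groups sit higher and SH RES mouse 5 stands alone at 20.96 CPM, and in Drd5 the EE groups sit lower, with overlap between the groups in both.

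With edgeR, 0 of 9 members passed an adjusted p of 0.05 for housing, where 2.42% of the 18283 genes tested did, against 1 with limma-voom and 2 with DESeq2. At an unadjusted p under 0.05 there were 4 members by each of the 3 tools, where 17.6% of all genes passed. Beside the D1-class pair these were the alpha2 receptors, the Gi-coupled autoreceptors and heteroreceptors of noradrenergic transmission. Adra2a had a median of 2.52 CPM in SH and 2.74 CPM in EE mice, with a log2 fold change of 0.14 (SE 0.06, adjusted p = 0.251 from edgeR). Adra2c had a median of 17.0 CPM in SH and 18.0 CPM in EE mice, with a log2 fold change of 0.10 (SE 0.05, adjusted p = 0.251). Neither passed, and in both the ranges of SH and EE mice overlapped. The median log2 fold change of the 9 members was 0.03, and that of all genes 0.0043. For the unstressed mice alone, in the comparison of EE control with SH control, 0 of 9 members passed (0.00547% of genes) and 1 had an unadjusted p under 0.05 (5.02% of genes) by each tool. This was Drd1, at 0.43 (SE 0.17, adjusted p = 0.860 from edgeR).

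Over the 6 groups in 1 test, 0 of 9 members passed with any of the 3 tools, where 0.350% of genes passed with edgeR. Unadjusted, 3 passed with edgeR (11.1% of genes), 2 with limma-voom and 3 with DESeq2. With edgeR these were Drd1 (adjusted p = 0.168), Drd5 (adjusted p = 0.425) and Adra1b (adjusted p = 0.164).

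The alpha1 receptor Adra1b had the widest spread, and its high values followed the thalamus markers. Adra1b is best known for its abundance in thalamus and cortex. It was measured at 0.964, 2.02 and 3.09 CPM in SH control, 1.22, 1.70 and 4.02 in SH RES and 1.18, 2.19 and 4.80 in SH SUS mice. In EE it was measured at 1.02, 1.66 and 2.34 CPM in control, 0.747, 2.08 and 6.35 in RES and 1.18, 3.17 and 7.78 in SUS mice. Every group reached down to about the same level, and the groups differed in how many mice were high. EE SUS mice averaged 3.86 ± 2.45 CPM (SD, n = 9) and EE control mice 1.60 ± 0.450 CPM (SD, n = 9), a log2 fold change of 1.28 (SE 0.31, adjusted p = 0.145 from edgeR). All 6 thalamus markers had an unadjusted p under 0.05 in the same comparison, with log2 fold changes of 1.04 (Lef1) to 1.89 (Tnnt1), and 0 of 6 passed an adjusted p of 0.05. Their summed level was 30.5 to 86.5 CPM in EE control, 22.0 to 276 CPM in EE RES and 47.2 to 245 CPM in EE SUS mice, and 21.4 to 145, 37.5 to 133 and 28.4 to 182 CPM in SH control, RES and SUS mice. Over the 54 mice, after group means were removed, Adra1b and the thalamus score correlated with Pearson's r = 0.921 and Spearman's rho = 0.927 (each with a permutation p of 1e-05, the smallest that 100000 permutations can give, and adjusted p of 0.00036 and 0.00054 over 108 relations). Without the 2 mice farthest from the median thalamus score, r was 0.901. With thalamus and choroid plexus scores as covariates, the log2 fold change of Adra1b in EE SUS against EE control mice was 0.06 (adjusted p = 0.975 from edgeR). Without the 3 mice with the highest thalamus scores (EE RES mouse 6, EE SUS mice 8 and 1) it was 0.88 (adjusted p = 0.603).

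**Figure D3:**
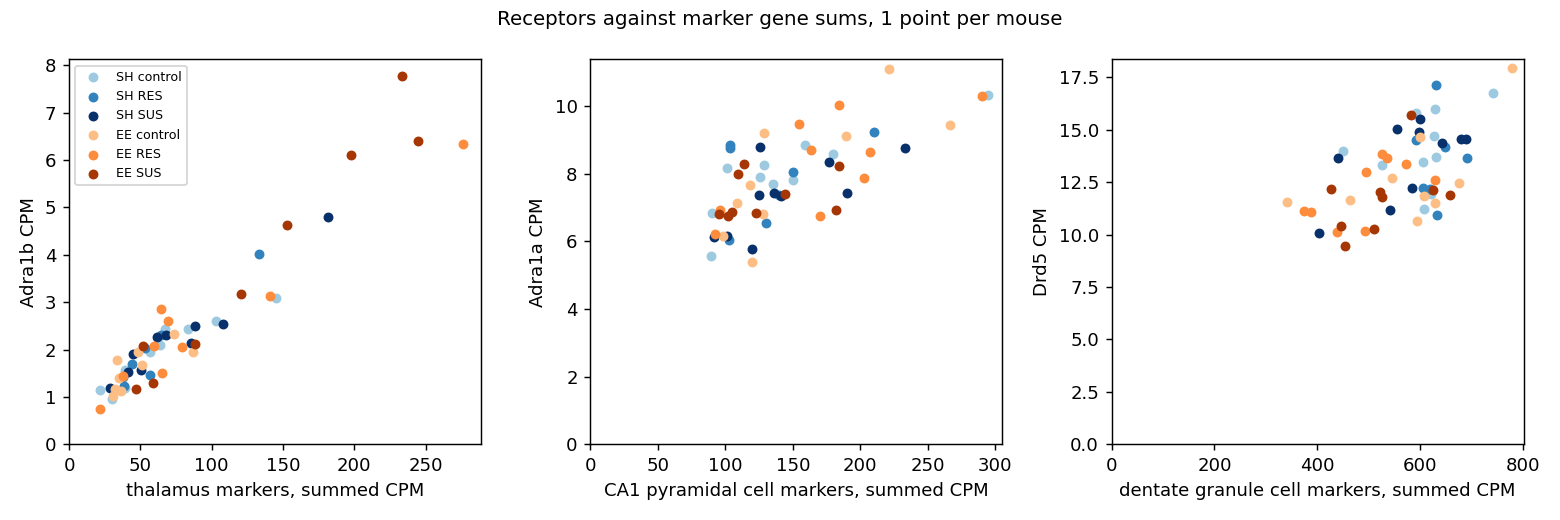
Each point is 1 mouse colored by group, the vertical axes are CPM of Adra1b, Adra1a and Drd5, and the horizontal axes are the summed CPM of thalamus, CA1 pyramidal cell and dentate granule cell markers. Adra1b climbs with the thalamus markers, from 0.747 CPM in an EE RES mouse to 7.78 CPM in an EE SUS mouse, Adra1a climbs more loosely with CA1 markers and Drd5 more loosely still with granule cell markers.

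Defeat was then compared with no defeat over both housings. By edgeR, 0 of 9 members passed (0.0438% of genes) and 2 had an unadjusted p under 0.05 (4.81% of genes), with the same counts from limma-voom and DESeq2. The median log2 fold change of the 9 members was -0.0099, and that of all genes -0.0028. Adra1b had a log2 fold change of 0.56 (SE 0.20, adjusted p = 0.828 from edgeR), which was 0.05 with thalamus and choroid plexus scores as covariates, and 5 of the 6 thalamus markers had an unadjusted p under 0.05 in the same direction. Drd1 had a log2 fold change of 0.25 (SE 0.11, adjusted p = 0.987), and 0.14 without SH RES mouse 5. The response to defeat was compared between housings as an interaction, in which 0 of 9 members passed (0% of genes) and 1 had an unadjusted p under 0.05 with edgeR (6.47% of genes), 0 with limma-voom and 1 with DESeq2. It was Adra1b, at 0.84 (SE 0.39, adjusted p = 0.756 from edgeR), and 4 of 6 thalamus markers had an unadjusted p under 0.05 there.

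Each defeated group was also set against the unstressed mice of its housing. The RES and SUS comparisons within a housing share their control mice. In SH RES mice, 0 of 9 members passed by edgeR (0% of genes) and 1 had an unadjusted p under 0.05 (3.51% of genes), against 2 with limma-voom and 1 with DESeq2. It was Drd1, at 0.50 (SE 0.18, adjusted p = 0.9999), a value that fell to 0.09 without SH RES mouse 5. In SH SUS mice, 0 of 9 passed (0.0328% of genes) and 0 had an unadjusted p under 0.05 with any tool (2.78% of genes with edgeR). In EE RES mice, 0 of 9 passed (0% of genes) and 1 had an unadjusted p under 0.05 with edgeR (7.91% of genes), 0 with limma-voom and 1 with DESeq2. It was Adra1b, at 0.68 (SE 0.32, adjusted p = 0.622), and 0.37 without EE RES mouse 6. In EE SUS mice, 0 of 9 passed (0% of genes) and 1 had an unadjusted p under 0.05 with each tool (7.90% of genes with edgeR), which was Adra1b as above.

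SUS and RES mice were compared within each housing to ask whether receptor mRNA went with the behavioral class. In SH, 0 of 9 members passed by edgeR (0% of genes) and 2 had an unadjusted p under 0.05 with each tool (4.88% of genes with edgeR). Drd2, the Gi-coupled receptor of the indirect striatal pathway and of hilar mossy cells, was measured at 1.51, 1.66 and 1.95 CPM in SH RES and 0.731, 1.35 and 1.58 CPM in SH SUS mice. The ranges overlapped only between 1.51 and 1.58 CPM. The log2 fold change from RES to SUS was -0.44 (SE 0.16, adjusted p = 0.934 from edgeR), at a median of 30.5 counts per mouse for this gene. Of the 6 granule cell markers, 2 had an unadjusted p under 0.05 in the same comparison (C1ql2 at -0.28 and Stxbp6 at -0.25), and of the 6 mossy cell markers 1 was lower (Calb2 at -0.34) and 1 higher at that p, with 0 past an adjusted p of 0.05 in either list by edgeR. Granule cell sums were 592 to 691 CPM in SH RES and 404 to 689 CPM in SH SUS mice, and mossy cell sums 210 to 277 CPM and 200 to 248 CPM. With granule cell, CA1 and thalamus scores as covariates the Drd2 value was -0.39 (adjusted p = 0.837). Adra1d was measured at 16.0, 23.6 and 29.3 CPM in SH RES and 21.7, 25.8 and 31.4 CPM in SH SUS mice, with a log2 fold change of 0.22 (SE 0.11, adjusted p = 0.934). At the criterion of the study, an unadjusted p under 0.05 and a fold change over 1.3 by limma-voom, 1 of 9 members qualified in SH (Drd2; 1.14% of genes) and 0 of 9 in EE (1.10% of genes).

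In EE, 0 of 9 members passed for SUS against RES by edgeR (0% of genes) and 1 had an unadjusted p under 0.05 (3.52% of genes), against 0 with limma-voom and 0 with DESeq2. It was Adra1b, at 0.60 (SE 0.30, adjusted p = 0.9997), 0.40 without EE SUS mouse 8, 0.90 without EE RES mouse 6, and 0.01 with thalamus and choroid plexus scores as covariates. Drd2 was measured at 0.850, 1.42 and 1.86 CPM in EE RES and 0.892, 1.48 and 1.93 CPM in EE SUS mice, with groups that overlapped almost fully. The difference between housings in the SUS to RES contrast was tested directly. There 0 of 9 members passed (0% of genes) and 1 had an unadjusted p under 0.05 with each tool (4.84% of genes with edgeR), which was Drd2 at 0.50 (SE 0.22, adjusted p = 0.977 from edgeR). With granule cell, CA1 and thalamus scores as covariates this was 0.27 (adjusted p = 0.973).

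**Figure D4:**
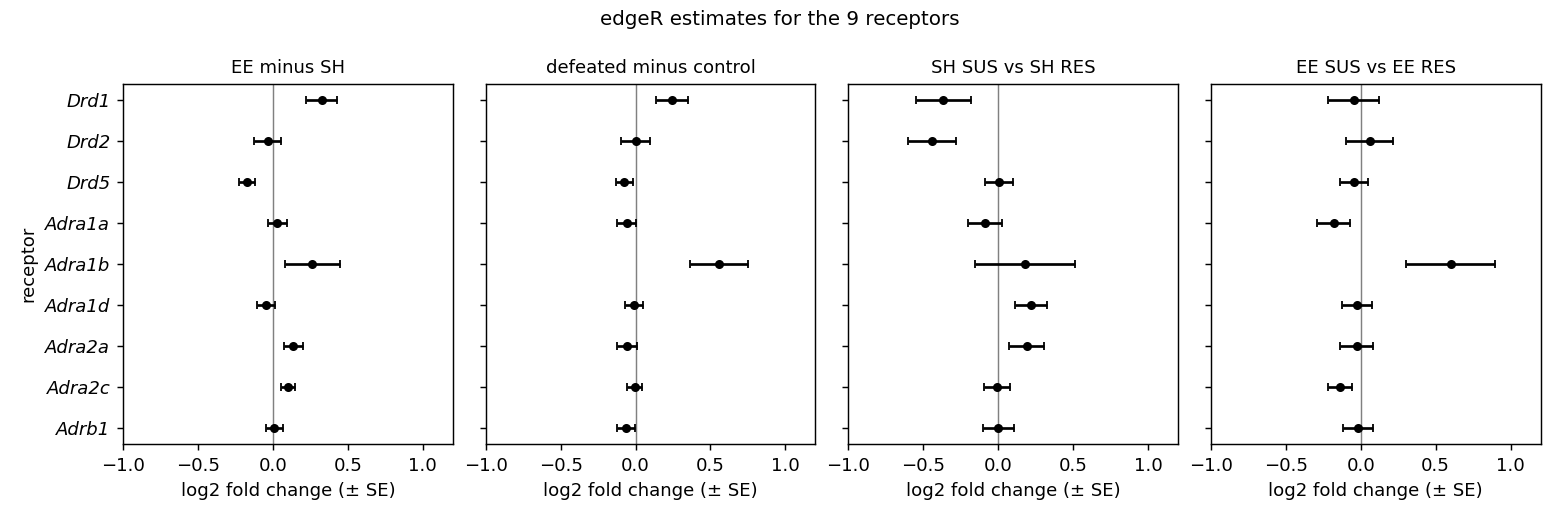
Points are edgeR log2 fold changes of the 9 receptors and bars their standard errors, with a panel each for EE minus SH, defeated minus control, and SUS against RES in SH and in EE. Drd1 at 0.33 and Drd5 at -0.17 stand apart from 0 for housing, and Adra1b has the widest bars in every panel.

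How each receptor varied between mice of a group differed by receptor, and 24 of the 108 relations between the 9 receptors and 12 cell type marker lists passed an adjusted permutation p of 0.05 for Pearson's r. By Spearman's rho 8 relations passed, all of them among the 24. Beside Adra1b and thalamus, the closest was Adra1a, a Gq-coupled alpha1 receptor, with CA1 pyramidal cell markers (r = 0.745, rho = 0.708, adjusted p = 0.00036 and 0.00054). Without the 2 mice farthest from the median CA1 score, r was 0.708. CA1 marker sums ran from 89.2 CPM to 295 CPM over the mice, and the CA1 list includes Wfs1 and Fibcd1. Adra2c went against the thalamus score (r = -0.624, rho = -0.536, adjusted p = 0.00036 and 0.00135, r = -0.569 without the 2 farthest mice) and with the CA1 score (r = 0.482, rho = 0.400, adjusted p = 0.00518 and 0.0370, r = 0.437). Drd5 went with the granule cell score (r = 0.517, rho = 0.559, adjusted p = 0.0027 and 0.00108, r = 0.481). Adra1d went against 3 lists by both measures. These were mossy cell markers (r = -0.463, rho = -0.412, adjusted p = 0.00828 and 0.0338, r = -0.431), striatum markers (r = -0.416, rho = -0.465, adjusted p = 0.028 and 0.0104, r = -0.400) and microglia markers (r = -0.344, rho = -0.409, adjusted p = 0.0496 and 0.0338, r = -0.341).

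By Pearson's r, Drd1 passed with 0 of 12 lists, Drd2 with 6, Adra1d with 4, Drd5, Adra1a, Adra1b and Adra2c with 3 each, and Adra2a and Adrb1 with 1 each. By Spearman's rho, Adra1d passed with 3, Adra2c with 2, Drd5, Adra1a and Adra1b with 1 each, and Drd1, Drd2, Adra2a and Adrb1 with 0. The 6 relations of Drd2 were weak and rested on Pearson's r alone, with r from -0.414 (choroid plexus) to 0.387 (granule cell), and that with choroid plexus was -0.190 without SH control mouse 3 and EE SUS mouse 3. For striatum, whose medium spiny neurons are the richest source of Drd1 and Drd2, the marker Six3 was at 0 in 35 of the 54 mice and the summed level of the list was 9.35 to 18.0 CPM. The number of relations that passed by Pearson's r was 20 with other size factors, 21 with counts that ignored strand, 24 with a smaller prior count and 22 with group means left in.

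**Figure D5:**
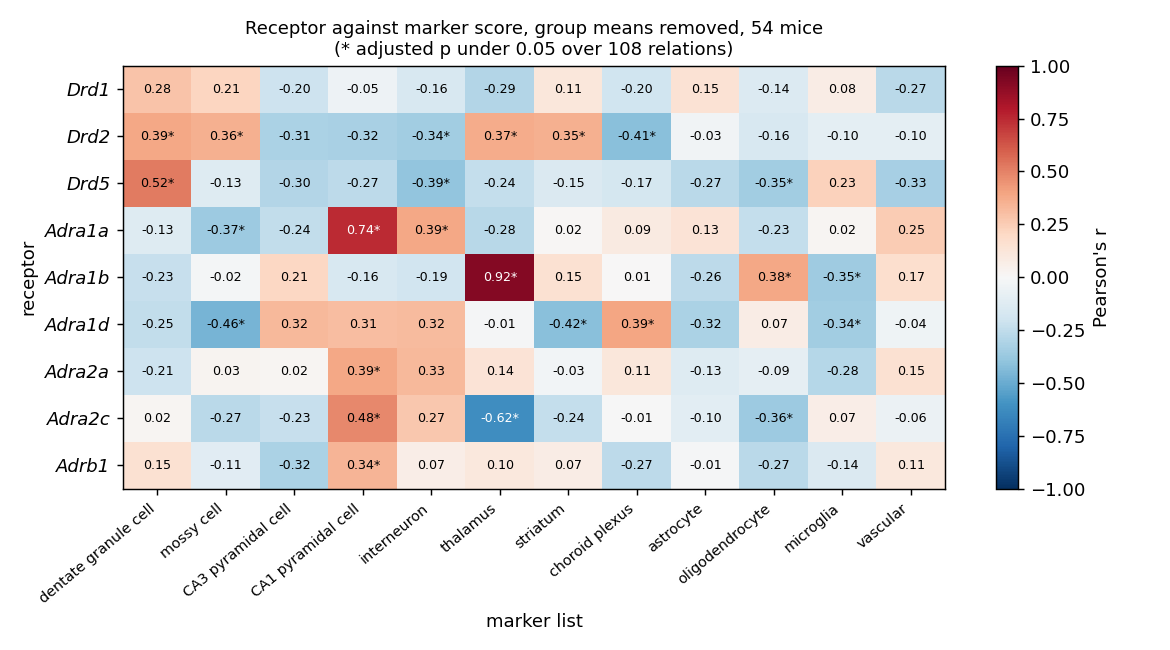
Rows are the 9 receptors, columns the 12 marker lists, and color and number give Pearson's r over 54 mice after group means were removed, with an asterisk at an adjusted p under 0.05 for r. The darkest cells are Adra1b with thalamus (0.92), Adra1a with CA1 (0.74) and Adra2c with thalamus (-0.62), and the row of Drd1 has no asterisk.

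The genes whose variation between mice was most like each receptor were named by Pearson's r over the 54 mice, as a description. For Drd1 these were Syne1 (0.779), Igfbpl1 (0.750) and Oit3 (0.722), and for Drd5 they included Rbm10 (0.799) and Iqgap2 (0.788). The values for Drd1 include SH RES mouse 5, and how far they rest on that mouse was not tested. Oit3 was scarce, with a median of 0.327 CPM. For Adra1b they were Amotl1 (0.941), Zic1 (0.936) and Plekhg1 (0.929). Zic1 is a zinc finger transcription factor. For Adra1a they were Ankrd63 (0.797), Mpped1 (0.785) and Tpbg (0.750), of which Mpped1 is in the CA1 marker list. For Adra1d they were Slc17a7 (0.784), the vesicular glutamate transporter of cortical and hippocampal excitatory neurons, Eef1a2 (0.772) and Ube2ql1 (0.766). The closest genes to Drd2 (Pde7b, Glp1r and Palm2), Adra2a (Mmp15, Pitpnm1 and Clstn1), Adra2c (Celf6, Fam171a2 and Oprd1) and Adrb1 (Cep170b, Ccdc85c and Eif3f) had r of at most 0.662. Among the receptors themselves, the highest r was that of Adra1a with Adrb1 (0.484) and the lowest that of Adra1b with Adra2c (-0.477), and Drd1 and Drd5 had r = -0.124. The scarce Adra2b had r = 0.793 with Adra1b.

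The genes of transmitter supply and of receptor signaling were taken from lists by name. Of the 11 genes of catecholamine synthesis, transport and breakdown, 7 passed the filter on low counts. Maoa and Maob, the mitochondrial oxidases that degrade monoamines, had medians of 38.9 CPM and 21.7 CPM. Th, the rate-limiting enzyme of synthesis, had a median of 0.0872 CPM and was not tested. Of 48 signaling genes (G proteins, adenylyl cyclases, phospholipases, kinases, phosphodiesterases and regulators), 1 passed for housing, where 2.42% of all genes did, and 11 had an unadjusted p under 0.05, where 17.6% of all genes did. The 1 was Rgs9, which speeds the switching off of Gi proteins and fell by 0.17 on the log2 scale in EE mice (SE 0.05, adjusted p = 0.0450). In the comparisons of defeat, its interaction with housing, and SUS against RES mice in each housing, 0 of 48 signaling genes passed by edgeR, with 2, 7, 8 and 2 at an unadjusted p under 0.05, where 4.81%, 6.47%, 4.88% and 3.52% of all genes had one.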

How the data were processed

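For each of 55 libraries the authors deposited unnormalized counts by gene, with unstranded, forward-strand and reverse-strand columns. According to their methods, reads of low quality were discarded and the rest aligned to GRCm38 with STAR, and the submitters' processing notes name STAR, Picard and mm10. Libraries were made with a stranded kit, so reverse-strand counts were used (forward-strand counts were 3.51% to 4.13%). The methods name featureCounts, whereas the tables are laid out like STAR's own gene counts. Rows for unmapped (13.9% to 19.9% of pairs), multimapping (8.70% to 12.1%), unassigned (19.9% to 28.8%) and ambiguous (0.836% to 1.12%) pairs were left out. Groups came from the labels. The 2 libraries named for EE control mouse 9 (log2 correlation 0.999, against at most 0.998 with other EE control mice) were summed as 1 mouse.

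Counts were normalized by TMM and filtered with filterByExpr in edgeR 4.0.16 (R 4.3.3), which left 18283 genes, and compared in 1 quasi-likelihood model over 6 groups with Benjamini-Hochberg adjustment over all genes. limma 3.58.1 (voom) and DESeq2 1.42.0 were alternatives. DESeq2 gave no adjusted p for some low-count genes. TPM used the exon union of GENCODE vM21. Marker scores were mean z-scores per mouse of log2 CPM (prior count of 2), and correlations used two-sided permutation tests with 100000 resamples. Descriptions and plots were made in Python 3.11.15 (matplotlib 3.10.9, NumPy 2.4.6, SciPy 1.17.1, pandas 2.3.3, statsmodels 0.14.6), and version 1.17.8 of data.table was used in R. Promoters came from RefSeq (GRCm38.p6) and covered 7 of the 9 members. On simulated counts with 200 of 18165 genes changed by a log2 value of 1 for housing, edgeR and limma-voom each recovered 99.5% of them, with 9 others called. That change is larger than the housing differences given for the receptors. The recovery of differences as small as theirs was not tested.

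Members, marker lists and signaling lists were chosen with earlier results of these data known. Named were the members, the other catecholamine receptors, the synthesis, transport and breakdown genes, signaling genes past an adjusted p of 0.05, and the 3 genes most like each member. Some genes that this rule names are not reported here. Member fold changes are given where the unadjusted edgeR p was under 0.05. The alternatives were other tools, size factors, filters, strand, sample weights, covariates, the first run alone, a replicate block, only the groups compared, and each mouse left out in turn. Marker scores of granule cells, CA1 and thalamus as covariates, and leaving out the 3 mice with the highest thalamus scores, were added after seeing the data.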

Additional observations from a re-analysis of the deposited data

Results flagged for a closer look

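Single mice stood far from the rest of their group, by Dixon's criterion at the 95% level, in 13 of the 54 combinations of a receptor and a group. Chance flags about 1 in 20 such groups, or 2.7 of 54.

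Drd1 was 20.96 CPM in SH RES mouse 5, where the next mouse had 7.32 CPM, and 12.8 CPM in EE SUS mouse 9, where the next had 9.60 CPM. Drd5 was 15.7 CPM in EE SUS mouse 7, against 12.2 CPM in the next, and that mouse also had the highest sum of microglia markers of all mice (526 CPM). The part of these markers in the Drd5 value was not tested. Drd2 was 0.731 CPM in SH SUS mouse 1, the lowest of all mice, and 2.27 CPM in EE control mouse 1, the highest of all, where Slc6a3, the dopamine transporter, also had its highest level (3.62 CPM).

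Adra1b was 4.02 CPM in SH RES mouse 4, 4.80 CPM in SH SUS mouse 3 and 6.35 CPM in EE RES mouse 6. Each of these 3 mice had the highest sum of thalamus markers in its group (133, 182 and 276 CPM). Adra2c was 13.2 CPM in EE RES mouse 6, the lowest of its group, where the next had 17.8 CPM.

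Adra1d was 38.0 CPM in SH control mouse 3, where the next mouse had 27.2 CPM. In that mouse the sums of CA1 markers (295 CPM) and of choroid plexus markers (975 CPM) were the highest of all mice. Adra2a was 4.13 CPM in EE control mouse 2, against 2.95 CPM in the next, and 3.92 CPM in EE RES mouse 1, against 2.95 CPM, and the sums of CA1 markers in these mice were 221 CPM and 290 CPM. Adrb1 was 9.65 CPM in EE SUS mouse 8, against 7.41 CPM in the next. The part of the marker genes in these values was not tested.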

How the results depend on the processing

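Of 12 comparisons, 10 kept a count of 0 members past an adjusted p of 0.05 under every alternative run, including each mouse left out. For housing the count was 0 with edgeR, 1 with limma-voom, unstranded counts, the replicate block, thalamus and choroid plexus scores as covariates, or granule cell, CA1 and thalamus scores as covariates, and 2 with DESeq2 or limma-voom with sample quality weights. With 1 mouse left out it ranged from 0 to 2, with 2 without SH RES mouse 5 or EE control mouse 8 and 1 without SH SUS mouse 3 or EE SUS mouse 7. For the 6 groups it ranged from 0 to 1, with 1 without SH RES mouse 5. The log2 fold change of Drd1 for housing was 0.32 to 0.42 over 12 alternatives, of which 6 had an adjusted p under 0.05 (0.00416 to 0.0974), and that of Drd5 was -0.20 to -0.08, of which 3 did (0.0274 to 0.507). With the granule cell, CA1 and thalamus scores as covariates, Adra1b turned to -0.015 for the interaction of defeat with housing and to -0.026 for EE RES against EE control mice. These scores differ between the groups themselves, so a covariate fit also takes away group differences that run along them.

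Replicate numbers were not used to pair the mice in the main fit. Mice of different groups with the same number had a median correlation of deviations of 0.0262 (126 pairs, 32 over 0.1). For other pairs it was -0.0040 (1086 pairs, 175 over 0.1). Over all genes, 581 passed for housing by edgeR with a replicate block and 442 without it. Whether the numbers mark a batch was not tested. With the replicate block, Drd1 had a log2 fold change of 0.34 for housing (adjusted p = 0.0460), and no other member crossed the threshold.

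Depth limits Drd2, Adra1b and Adra2a, with medians of 30.5, 44.0 and 57.0 counts per mouse, more than Adra1d with 514. A punch mixes cell types, and a difference in mRNA says nothing of receptor protein or of its site.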

Other observations

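Transcripts that dopamine neurons use for synthesis and uptake were scarce in most punches and higher in a few mice. Slc6a3, the dopamine transporter, had a median of 0.578 CPM and reached 3.62 CPM in EE control mouse 1, and Th had a median of 0.0872 CPM and reached 0.907 CPM in EE control mouse 4. Dbh, which makes noradrenaline from dopamine, had a median of 0.620 CPM (range 0.297 to 1.15) and a log2 fold change of -0.39 for EE against SH mice (SE 0.12, adjusted p = 0.0628 from edgeR), which did not pass. Ddc and Slc18a2, which serve every monoamine, had medians of 3.55 and 3.60 CPM.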
